A study of Mus musculus with 9 samples.

Results

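A set of 10 secreted signalling genes was followed in mouse embryonic fibroblasts (MEFs) with and without pairs of H3K9 lysine methyltransferases (KMT), which place methyl groups on lysine 9 of histone H3. The genes were the chemokines Ccl2, Ccl5, Ccl7, Cxcl1, Cxcl5, Cxcl10, Cxcl12 and Cx3cl1, the macrophage growth factor Csf1 and the cytokine Il6. They were chosen by name, with earlier results of these data known. All 10 were found by Ensembl identifier among the 47937 genes of the count table. Total RNA was sequenced from 9 libraries, 3 for each of 3 genotypes. WT cells carry all H3K9 KMT, S1S2 cells are mutant for Suv39h1 and Suv39h2, and G9Gl cells are mutant for G9a and Glp, which the genes Ehmt2 and Ehmt1 encode. Per the study's methods, all 3 genotypes share a conditional Eset1 allele and an inducible Cre, because the WT cells are an Eset1-conditional MEF clone and both mutants were made from it by CRISPR/Cas9. The labels name no tamoxifen or cytokine treatment. A single clone per mutant was selected by the absence of the proteins on western blots, so genotype and clone cannot be told apart in any comparison. P-values measure the spread between these libraries.

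Chemokines are small secreted proteins that guide the migration of leukocytes through G protein-coupled receptors. CC chemokines such as Ccl2 mainly attract monocytes and lymphocytes, CXC chemokines of the Cxcl1 type attract neutrophils, and Cxcl10 attracts activated T cells. In fibroblasts many of these genes are transcribed at a low level at rest and are induced by NF-kB after inflammatory stimuli or by interferon, whereas Cxcl12 and Csf1 are made by unstimulated stromal cells.

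The libraries held between 21319778 and 32157623 counts, and the S1S2 libraries were the smallest. Values are given as CPM, the count of a gene scaled by library size and TMM factor. TMM factors lay between 0.981 and 1.03. A gene with at most 3 counts in every library of a genotype was taken as not detected there, which corresponds to between 0.0922 and 0.141 CPM in a library. Among the targeted genes, Suv39h1 transcripts fell by 1.36 on the log2 scale in S1S2, and Ehmt2 and Ehmt1 transcripts fell by 1.20 and 1.04 in G9Gl. Suv39h2 transcripts were higher in S1S2 by 0.70, so transcript level did not mark its mutation. The labelled cell type was checked with 12 fibroblast markers, all of them above the floor in at least 1 library, whose summed level was 10588 to 12206 CPM in WT, 7984 to 8056 CPM in S1S2 and 8363 to 9264 CPM in G9Gl. Of the 11 markers tested, 6 were called lower in S1S2, among them Col1a2 and Col3a1, beside 4.34% of all tested genes. In G9Gl 3 were called lower and 1 higher, beside 3.40% and 6.77%.

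A gene was called when the quasi-likelihood test of edgeR gave a p of at most 0.01 after Benjamini-Hochberg adjustment over the 15540 genes tested, with a fold change of at least 2. Of the 10 genes, 8 passed the filter on low counts, and Cxcl5 and Il6 did not. In S1S2 against WT 4 genes were called, all of them higher (Ccl2, Ccl5, Cxcl10 and Csf1), against a background of 8.996% of tested genes called and 4.66% called higher. In G9Gl against WT 5 were called, with Ccl2, Ccl5, Ccl7 and Cxcl10 higher and Cxcl12 lower. There the background was 10.2%, with 6.77% called higher and 3.40% lower. Between the mutants, Ccl7 was higher in G9Gl and Cxcl10 and Cxcl12 were higher in S1S2, against a background of 13.1%, with 7.97% called higher in G9Gl and 5.08% lower. Libraries of the compared groups did not overlap in 56.05% of all tested genes for S1S2 against WT, 52.8% for G9Gl against WT and 60.8% between the mutants. The median log2 fold change of the 8 tested genes was 0.96 in S1S2 and 1.05 in G9Gl, and that of all tested genes was -0.0032 and -0.0067. Both contrasts use the same WT libraries. Because the genes were chosen with earlier results of these data known, their counts and medians are descriptions and no test of the set.

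**Figure D1:**
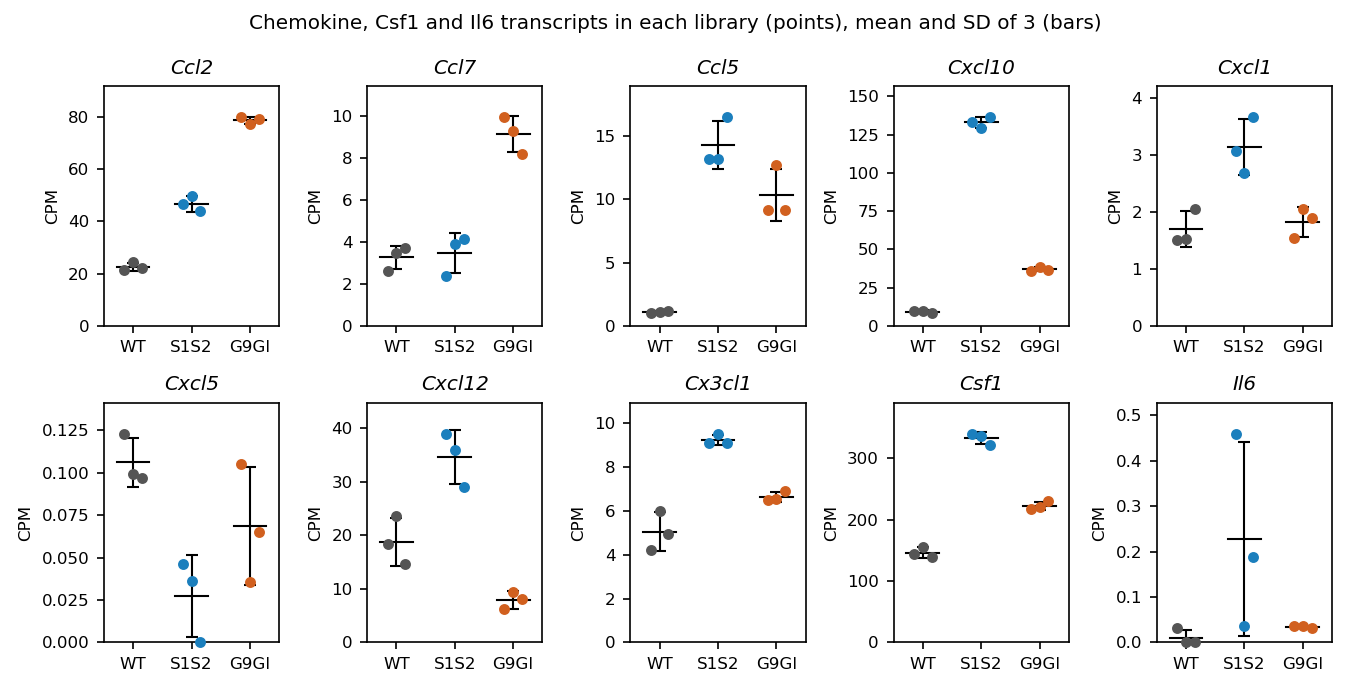
Level of the 10 transcripts in each library, in CPM on a linear axis that starts at 0, for WT, S1S2 and G9Gl. Points are libraries, horizontal bars are means and vertical bars are the SD of 3 libraries. Cxcl10 stood at 129 to 136 CPM in S1S2 against 8.28 to 10.04 CPM in WT, and Cxcl12 was highest in S1S2 and lowest in G9Gl.

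Cxcl10, the interferon-induced ligand of Cxcr3, showed with Ccl5 the largest rises of the 8 tested genes in S1S2. The order of these 2 is not set by the data, since their 95% intervals overlapped (3.69 to 3.96 for Cxcl10 and 3.34 to 4.07 for Ccl5) and without WT replicate 3 Ccl5 was ahead (3.77 against 3.74). The gene lies at chr5:92346638-92348889 on the minus strand (GRCm38). Its level was 9.84, 10.04 and 8.28 CPM in the WT libraries, 133, 129 and 136 CPM in S1S2, and 36.0, 38.3 and 36.5 CPM in G9Gl. The 3 genotypes did not overlap, and G9Gl lay between WT and S1S2. Against WT the log2 fold change was 3.82 in S1S2 (SE 0.090, adjusted p 3.25e-17 by edgeR, 14.2-fold) and 1.98 in G9Gl (SE 0.092, adjusted p 1.27e-13, 3.93-fold). The direct contrast put Cxcl10 lower in G9Gl than in S1S2 by 3.60-fold (log2 fold change -1.85, SE 0.035, 95% interval from -1.97 to -1.73, adjusted p 2.02e-14). Art3 overlaps Cxcl10 on the opposite strand and shares 2.47% of its 75-mers, and Art3 held at most 4 counts in any library.

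Csf1, the growth factor that keeps macrophages alive through Csf1r, was the most abundant of the 10 transcripts per length in WT and in S1S2. It lies at chr3:107741048-107760469 on the minus strand. The WT libraries had 144, 155 and 139 CPM, the S1S2 libraries 340, 336 and 321 CPM, and the G9Gl libraries 217, 220 and 230 CPM. All libraries of S1S2 were above all libraries of G9Gl, and those were above WT. The rise in S1S2 was 2.28-fold (log2 fold change 1.19, SE 0.054, adjusted p 1.55e-12 by edgeR). In G9Gl the adjusted p was 7.87e-09, but the change of 1.52-fold (log2 fold change 0.60, SE 0.054) was under the fold limit. G9Gl was lower than S1S2 by 0.58 on the log2 scale (SE 0.035, adjusted p 8.54e-09), also under that limit.

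The bases upstream of Cxcl10, Csf1 and Cxcl12 are shown because the first pair rose in S1S2 and the last fell in G9Gl. Each run is the 250 bases before the annotated start in RefSeq (GRCm38.p6), 5′ to 3′ on the strand of the gene, with matches of the searched motifs in capitals. The windows are chr5:92348890-92349139 on the minus strand for Cxcl10, chr3:107760470-107760719 on the minus strand for Csf1 and chr6:117168285-117168534 on the plus strand for Cxcl12.
Cxcl10: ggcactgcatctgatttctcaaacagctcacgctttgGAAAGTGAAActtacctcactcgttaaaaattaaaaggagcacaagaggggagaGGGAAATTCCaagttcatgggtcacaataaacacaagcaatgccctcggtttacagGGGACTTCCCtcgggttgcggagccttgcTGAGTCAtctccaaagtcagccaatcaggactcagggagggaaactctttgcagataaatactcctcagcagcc
Csf1: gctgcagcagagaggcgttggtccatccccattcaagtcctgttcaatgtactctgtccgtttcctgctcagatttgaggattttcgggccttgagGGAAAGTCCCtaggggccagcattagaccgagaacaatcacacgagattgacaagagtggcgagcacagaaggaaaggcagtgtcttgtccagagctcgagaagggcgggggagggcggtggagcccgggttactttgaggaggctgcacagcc
Cxcl12: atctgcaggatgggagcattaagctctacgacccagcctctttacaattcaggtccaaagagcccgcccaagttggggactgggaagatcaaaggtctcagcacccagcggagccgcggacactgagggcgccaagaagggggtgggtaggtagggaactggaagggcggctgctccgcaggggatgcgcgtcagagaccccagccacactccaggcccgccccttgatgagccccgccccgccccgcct

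The motifs were searched on both strands in the windows of 6 of the 10 genes, since the RefSeq table used here held entries for Cxcl1, Cxcl10, Cxcl12, Cx3cl1, Csf1 and Il6. They were the kappaB consensus, the interferon-stimulated response element core (GAAA, any 2 bases, GAAA), the palindromic AP-1 site TGANTCA and the TATA box TATAAA. The Cxcl10 window held 2 kappaB matches, which begin 159 and 103 bases before the start, the interferon element core 213 bases before it and an AP-1 match 74 bases before it. Csf1 had a kappaB match on the opposite strand 154 bases before the start. The Cxcl12 window held none of the 4 motifs. In Cxcl1 a kappaB match began 71 bases before the start, and a second match on the opposite strand overlapped it. Il6 had a kappaB match at 44 bases and an AP-1 match at 249 bases, and Cx3cl1 had a TATA box match 6 bases before the start. The Cx3cl1 window is chr8:94771930-94772179, so its RefSeq start lies downstream of the gene start at 94772009 given below. Of all 32851 windows of this length, 3.90% held the kappaB consensus, 2.98% the interferon element core, 6.75% the AP-1 site and 12.4% the TATA box. These matches are descriptions of the letters, and binding was not measured.

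Ccl2 and Ccl7 encode monocyte attractants that act mainly through Ccr2, and they are neighbours on chromosome 11. Ccl2 lies at chr11:82035571-82037453 and Ccl7 at chr11:82045712-82047525, both on the plus strand and 8.26 kb apart. Ccl2 was measured at 21.3, 24.3 and 22.3 CPM in WT, 46.5, 49.8 and 43.9 CPM in S1S2, and 79.9, 77.2 and 79.2 CPM in G9Gl. The 3 genotypes did not overlap, with G9Gl highest. In G9Gl Ccl2 rose 3.48-fold (log2 fold change 1.80, SE 0.058, adjusted p 9.84e-14 by edgeR). In S1S2 it rose 2.07-fold (log2 fold change 1.05, SE 0.077, adjusted p 3.17e-10). That value is close to the limit and fell under it without WT replicate 1 (log2 fold change 1.00) or without S1S2 replicate 2 (0.99), and the test against a fold change of 2 gave an adjusted p of 0.97. G9Gl was above S1S2 by 0.75 on the log2 scale (SE 0.055, adjusted p 5.48e-09), which is under the fold limit. The antisense gene Gm17268 that overlaps Ccl2 held at most 3 counts in any library.

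Ccl7, unlike Ccl2, was not called in S1S2. Its level was 2.64, 3.47 and 3.70 CPM in WT, 2.39, 3.90 and 4.14 CPM in S1S2, and 9.96, 9.30 and 8.22 CPM in G9Gl. The WT and S1S2 libraries overlapped, and every G9Gl library was above both. In G9Gl Ccl7 rose 2.80-fold over WT (log2 fold change 1.49, SE 0.17, adjusted p 6.56e-07 by edgeR) and 2.62-fold over S1S2 (log2 fold change 1.39, SE 0.26, adjusted p 1.73e-06). The test against a fold change of 2 gave an adjusted p of 0.0125 over WT and 0.0429 over S1S2. For S1S2 against WT the log2 fold change of Ccl7 was 0.097, with a 95% interval from -0.30 to 0.49 (adjusted p 0.70), and its sign changed when single libraries were left out, over a range from -0.044 to 0.30.

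Ccl5 attracts T cells and monocytes and lies at chr11:83525778-83530518 on the minus strand. It was low in WT, with 0.984, 1.09 and 1.19 CPM, equal to 32, 33 and 37 counts. The S1S2 libraries had 13.1, 13.2 and 16.4 CPM, and the G9Gl libraries had 9.12, 12.7 and 9.13 CPM. Both mutants were well above WT, and they did not overlap with each other, though S1S2 replicate 3 and G9Gl replicate 2 each stood apart from their own group. The rise over WT was 13.0-fold in S1S2 (3.70 on the log2 scale, SE 0.13, adjusted p 1.7e-11 by edgeR) and 9.44-fold in G9Gl (log2 fold change 3.24, SE 0.17, adjusted p 8.25e-11). G9Gl was below S1S2 by 0.47 on the log2 scale (SE 0.19, adjusted p 0.00528), under the fold limit.

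Cxcl12, the ligand of Cxcr4 and a retention signal for blood stem cells, differed between the mutants. The gene lies at chr6:117168535-117181367 on the plus strand. Its level was 18.3, 23.6 and 14.6 CPM in WT, 39.0, 35.9 and 29.1 CPM in S1S2, and 6.21, 9.44 and 8.06 CPM in G9Gl. No libraries of different genotypes overlapped, but replicates were more spread than those of Ccl2 or Csf1. In G9Gl Cxcl12 fell 2.38-fold (log2 fold change -1.25, SE 0.26, adjusted p 5.75e-06 by edgeR), and the test against a fold change of 2 gave an adjusted p of 0.249. In S1S2 it was higher by 1.84-fold (log2 fold change 0.88, SE 0.23, adjusted p 6.57e-05), under the fold limit. Without WT replicate 2 that value was 1.07 and passed the limit. The direct contrast was called, with Cxcl12 4.39-fold below its S1S2 level in G9Gl (log2 fold change -2.13, SE 0.21, adjusted p 3.88e-09).

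Cx3cl1, a membrane-anchored chemokine that is released by proteolysis, lies at chr8:94772009-94782427 on the plus strand. Its level was 4.21, 5.98 and 4.96 CPM in WT, 9.10, 9.51 and 9.07 CPM in S1S2, and 6.49, 6.53 and 6.88 CPM in G9Gl. The genotypes did not overlap. Its difference from WT was 1.83-fold in S1S2 (0.87 on the log2 scale, SE 0.15, adjusted p 1.07e-05 by edgeR), and without WT replicate 2 it passed the fold limit at 1.01. In G9Gl the log2 fold change was 0.40 (SE 0.15, adjusted p 0.0124), and against S1S2 G9Gl was lower by 0.48 (SE 0.034, adjusted p 0.00229). The 95% interval of this last difference was -0.72 to -0.23 on the log2 scale. The median log2 fold change of all tested genes on chromosome 8 was 0.15 in S1S2.

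The neutrophil attractants Cxcl1 and Cxcl5, which signal through Cxcr2, were low throughout. Cxcl1 lies at chr5:90891241-90893115 on the plus strand and had 1.51, 1.52 and 2.06 CPM in WT, 3.08, 2.70 and 3.67 CPM in S1S2, and 1.54, 2.05 and 1.89 CPM in G9Gl. Only the S1S2 libraries stood apart from the other 2 genotypes. The S1S2 level was 1.84-fold that of WT (log2 fold change 0.88, SE 0.19, adjusted p 0.00104 by edgeR), under the fold limit except without WT replicate 3, when the log2 fold change was 1.04. For G9Gl against WT the log2 fold change was 0.11 with a 95% interval from -0.32 to 0.53 (adjusted p 0.695). Against S1S2, G9Gl was lower by 0.77 (SE 0.17, adjusted p 0.0026). Cxcl5, at chr5:90759360-90761624 on the plus strand, had 4, 3 and 3 counts in WT, 1, 1 and 0 in S1S2, and 3, 1 and 2 in G9Gl, so it was near the floor in every genotype. Its WT libraries were above those of S1S2, and 56.05% of all tested genes did not overlap either. In the edgeR fit without the filter on low counts, S1S2 against WT gave a log2 fold change of -1.77 (adjusted p 0.322). The adjusted p was 0.721 for G9Gl against WT and 0.557 between the mutants, so no difference was detected at this depth.

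Il6, the acute-phase cytokine that signals through Il6st, was close to absent from the libraries. It lies at chr5:30013114-30019981 on the plus strand. WT had 1, 0 and 0 counts, G9Gl had 1 in each library, and S1S2 had 10, 1 and 4. The higher total in S1S2 came mostly from replicate 1, and S1S2 replicate 2 had as many counts as each G9Gl library. Summed over libraries, the S1S2 level was 19.97 times that of WT with a 95% interval for counting error alone from 3.07 to 841. Il6 did not pass the filter on low counts. In the edgeR fit without that filter, it met the call rule in S1S2 against WT, with a log2 fold change of 3.87 that rests on 1 count in WT and an adjusted p of 0.00613. The adjusted p was 0.568 for G9Gl against WT and 0.0471 between the mutants.

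**Figure D2:**
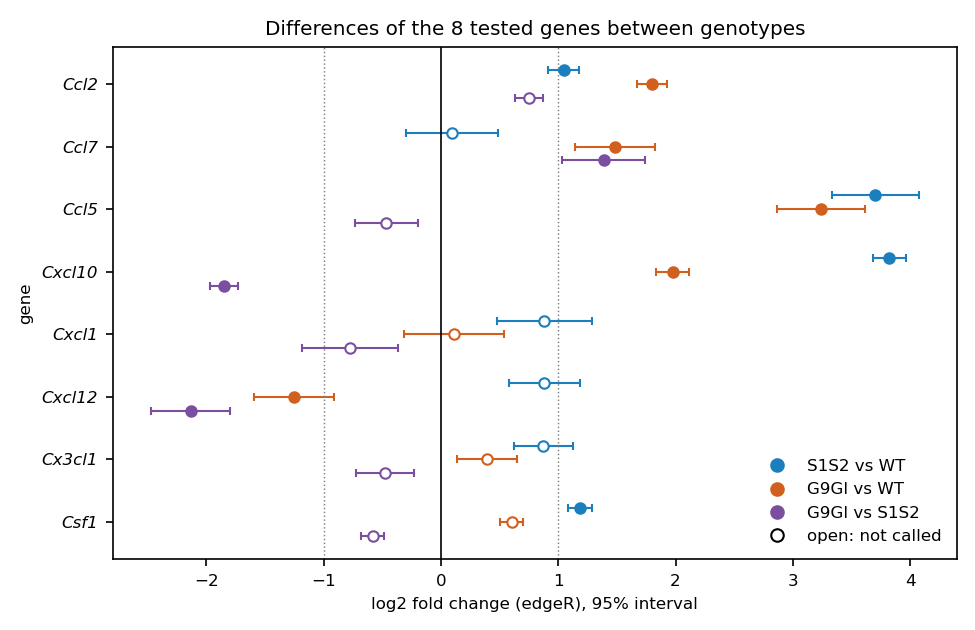
Log2 fold changes of the 8 tested genes for each mutant against WT and for G9Gl against S1S2, from edgeR with 95% intervals as bars. Dotted lines mark a fold change of 2. Cxcl10 and Ccl5 were higher in both mutants by 1.98 to 3.82 on the log2 scale, and Cxcl12 was above 0 in S1S2 and below 0 in G9Gl.

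Without the fold limit, at an adjusted p of at most 0.01, 7 of the 8 tested genes were higher in S1S2 and none was lower, with Ccl7 the exception. In G9Gl 5 were higher and Cxcl12 was lower. The background for that rule was 37.9% of tested genes in S1S2 and 34.99% in G9Gl. In the direct contrast all 8 passed, 2 higher in G9Gl (Ccl2 and Ccl7) and 6 higher in S1S2, against a background of 42.6%. Of these, 3 went above 0.01 when a single library was left out. The adjusted p of Ccl5 was 0.0377 without S1S2 replicate 3, 0.0274 without G9Gl replicate 1 and 0.0365 without G9Gl replicate 3. That of Cxcl1 was 0.0165 without S1S2 replicate 3, 0.0136 without G9Gl replicate 1 and 0.0169 after thinning all libraries to the smallest, and that of Cx3cl1 was 0.0136 without S1S2 replicate 2. In G9Gl against WT, Cx3cl1 passed without WT replicate 2 (log2 fold change 0.53, adjusted p 0.00169) and without the filter on low counts (0.39, adjusted p 0.00596).

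Levels were compared between genes as CPM per kb of the longest transcript. In WT the order was Csf1 (35.0 ± 2.04, SD, n = 3) and Ccl2 (20.7 ± 1.42), followed by Cxcl10 (4.21 ± 0.433), Ccl7 (4.09 ± 0.695) and Cxcl12 (3.35 ± 0.798), whose libraries overlapped from each to the next. Ccl5 and Cx3cl1 overlapped next at 1.63 ± 0.156 and 1.52 ± 0.268, and Cxcl1 (0.906 ± 0.169), Cxcl5 and Il6 came last. In S1S2 Cxcl10 (59.6 ± 1.56) stood second after Csf1 (79.6 ± 2.32), above Ccl2 (42.6 ± 2.71) and Ccl5 (21.3 ± 2.84), with no overlap between these neighbours. Then came Cxcl12 (6.16 ± 0.897), Ccl7 (4.34 ± 1.18), Cx3cl1 (2.78 ± 0.0738) and Cxcl1 (1.68 ± 0.261), and Il6 and Cxcl5 overlapped at the end. In G9Gl the first place went to Ccl2 (71.9 ± 1.29), above Csf1 (53.2 ± 1.61). Cxcl10 (16.6 ± 0.548) and Ccl5 (15.4 ± 3.09) overlapped there, followed by Ccl7 (11.4 ± 1.10), Cx3cl1 (2.00 ± 0.0652), Cxcl12 (1.40 ± 0.288), Cxcl1 (0.977 ± 0.138), Cxcl5 and Il6. The summed level of the 10 genes per kb was 71.4 ± 4.63 in WT, 218 ± 0.796 in S1S2 and 173 ± 2.46 in G9Gl. Cxcl10 made up 5.90% of that sum in WT, 27.3% in S1S2 and 9.58% in G9Gl. The share of Ccl2 was 28.9% in WT, 19.5% in S1S2 and 41.6% in G9Gl, and that of Csf1 was 49.0%, 36.5% and 30.8%.

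**Figure D3:**
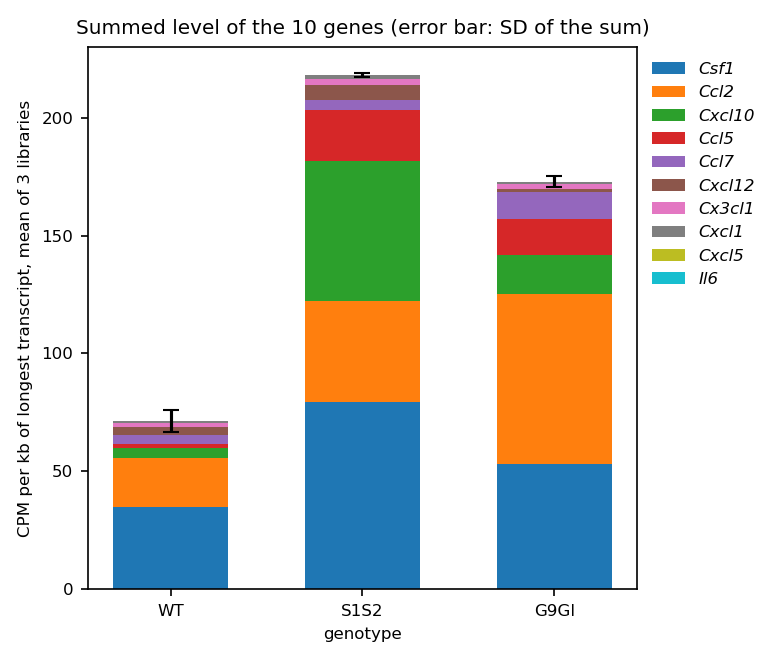
Summed level of the 10 transcripts in each genotype, as the mean of 3 libraries in CPM per kb of the longest transcript, with each gene as a segment of the bar. The bars reach 71.4 in WT, 218 in S1S2 and 173 in G9Gl, and the Cxcl10 segment is 59.6 in S1S2 against 4.21 in WT.

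Chemokine genes lie in clusters, so the neighbours of the 10 genes were also read. Around Ccl2 and Ccl7, the genes Ccl11, Ccl12, Ccl8 and Ccl1 had at most 3 counts in any library. Beside Ccl5, at a gap of 42.4 kb, Ccl9 is a macrophage-attracting chemokine. Ccl9 had 163, 151 and 149 counts in WT, 3, 6 and 2 in S1S2, and 664, 722 and 848 in G9Gl, so it was nearly lost in the genotype in which Ccl5 was highest. Its log2 fold change was -4.94 in S1S2 (SE 0.24, adjusted p 1.74e-11 by edgeR), 2.38 in G9Gl (SE 0.075, adjusted p 1.19e-12) and 7.32 between the mutants. Ccl6, the next gene, had 0 to 4 counts in WT, 0 to 2 in S1S2 and 18 to 33 in G9Gl, and was called in G9Gl against WT (log2 fold change 3.17, SE 0.54, adjusted p 0.000147). Ccl3 and Ccl4 had at most 1 count.

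On chromosome 5, Cxcl11, a further Cxcr3 ligand 10.7 kb from Cxcl10, had 26, 51 and 33 counts in S1S2 and at most 1 count in any library of WT or G9Gl. Its level in WT rests on 1 count in all and was under the floor. Over the summed counts its S1S2 level was 146 times that of WT, with a 95% interval for counting error alone from 25.7 to 5835 (adjusted p 8.1e-08 by edgeR). The annotation lists Cxcl11 as a polymorphic pseudogene, and it shares 39.8% of its 75-mers with Gm2673, which overlaps it, so its reads are uncertain. Cxcl9, the third Cxcr3 ligand, had at most 3 counts. Around Cxcl1, the genes Ppbp, Pf4, Cxcl3, Cxcl15 and Cxcl2 had at most 3 counts.

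**Figure D4:**
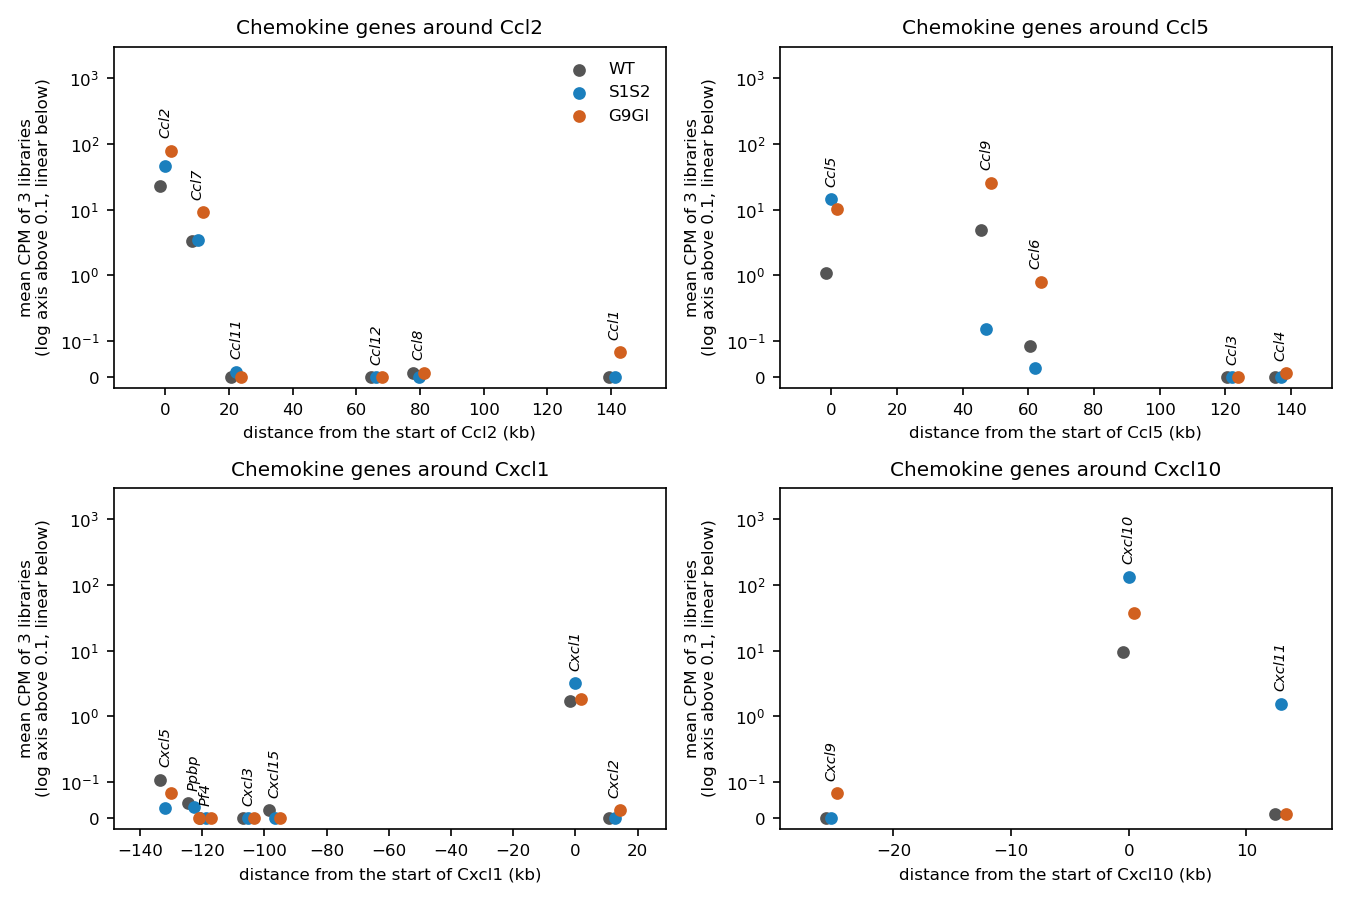
Mean level of the chemokine genes around Ccl2, Ccl5, Cxcl1 and Cxcl10, in CPM of 3 libraries (log axis above 0.1, linear below), against the distance of each gene from the start of the named gene in kb. Points of the 3 genotypes are set slightly apart sideways. Ccl9 was at 25.6 CPM in G9Gl and 0.150 CPM in S1S2, and most other neighbours were at or near 0.

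Of all 30 other chemokine ligands, 21 had at most 3 counts in every library and 8 were tested. In S1S2 1 was called higher (Cxcl11) and 2 lower (Ccl9 and Cxcl14), and in G9Gl 3 were higher (Ccl9, Ccl6 and Ccl17) and 1 lower (Cxcl14). The background for this and the following lists was 8.996% of all tested genes called in S1S2, 10.2% in G9Gl and 13.1% between the mutants. Some genes of these short lists, such as Cxcl11, passed the filter only through the genotype in which they were high, so the counts are descriptions. Cxcl14, a chemokine of epithelia and stroma, stood at 13.3 ± 1.20 CPM in WT, 1.55 ± 0.179 CPM in S1S2 and 4.90 ± 0.460 CPM in G9Gl. By edgeR it fell by 3.12 on the log2 scale in S1S2 (SE 0.12, adjusted p 7.17e-12) and by 1.45 in G9Gl (SE 0.11, adjusted p 6.66e-09). Ccl17 had 12, 10 and 20 counts in G9Gl and 2 to 5 in WT, and DESeq2 did not call it (adjusted p 0.0127). Between the mutants 3 were higher in G9Gl (Ccl9, Ccl6 and Cxcl14) and Cxcl11 was lower. Ccl20, named after its values were seen, did not pass the filter and had 7, 18 and 16 counts in G9Gl, none in S1S2 and 1 in WT. DESeq2, which tested it, called it higher in G9Gl than in WT (adjusted p 0.000801).

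The receptors of the 10 ligands were mostly undetected. Of 14 receptor genes 6 had no count in any library, Ccr2 among them, and 3 were tested. Il6st, through which Il6 signals, was abundant, with 389 ± 8.89 CPM in WT, 346.5 ± 3.43 in S1S2 and 378 ± 8.53 in G9Gl. It was not called in any contrast. Cxcr4, the signalling receptor of Cxcl12, had at most 3 counts, and Csf1r had at most 1 in WT and S1S2 and 3 to 10 in G9Gl. Il6ra, the Il6-binding subunit, had 7.87 ± 0.655 CPM in WT and rose to 20.7 ± 1.05 CPM in S1S2, by 1.39 on the log2 scale (SE 0.082, adjusted p 8.26e-09 by edgeR). Ackr3, the scavenger receptor of Cxcl12, had 0.810 ± 0.0318 CPM in WT and fell to 0.170 ± 0.0811 CPM in G9Gl, by 2.21 on the log2 scale (SE 0.27, adjusted p 7.41e-05). In G9Gl against S1S2 both were called lower.

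Related cytokines were measured as well. Of 10 other members of the Il6 family and colony-stimulating factors, 7 were tested. In S1S2 Ctf1 and Kitl, the stem cell factor, were called lower, with log2 fold changes of -1.13 and -1.34, and none was called higher. Without the fold limit 3 were higher and 2 lower in S1S2 and 1 was higher in G9Gl, beside 37.9% and 34.99% of all tested genes. Lif, the leukemia inhibitory factor, was close to the limit in both mutants, with 14.8 ± 1.76 CPM in WT, 27.3 ± 0.937 CPM in S1S2 (log2 fold change 0.88, adjusted p 5.92e-08 by edgeR) and 27.9 ± 1.01 CPM in G9Gl (0.91, adjusted p 2.47e-08). In G9Gl edgeR called none of the 7 against WT, 3 had an unadjusted p under 0.05 (52.4% of all tested genes did), and DESeq2 also called 0. Between the mutants Ctf1 and Kitl were higher in G9Gl and Il34, the second ligand of Csf1r, was lower (log2 fold change -1.07, SE 0.063, adjusted p 5.85e-06 by edgeR). Against WT, Il34 had the highest log2 fold change of the 7 in S1S2, 0.99, just under the limit. Its level was 5.96 ± 1.57 CPM in WT and 11.8 ± 0.621 CPM in S1S2.

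Among 14 inflammatory inducers and their receptors, 11 were tested. Ifnb1 had no count, and Tnf had at most 1 and Il1b at most 2 counts in any library. Il1rn, the antagonist of the interleukin 1 receptor, was at 11.4 ± 0.517 CPM in WT, 0.828 ± 0.0562 in S1S2 and 106 ± 1.86 in G9Gl, with log2 fold changes against WT of -3.78 (SE 0.065, adjusted p 3.15e-14 by edgeR) and 3.22 (SE 0.040, adjusted p 1.53e-17). Il1a had no count in WT or S1S2 and 65, 51 and 77 counts in G9Gl, at least 23.0-fold higher than the mean WT floor of 3 counts per library (adjusted p 7.38e-08). It shares 7.95% of its 75-mers with the overlapping Gm14023. Il18 fell in S1S2 (log2 fold change -2.17, adjusted p 2.24e-07) and Il33 rose there on 14, 35 and 13 counts (1.57, adjusted p 0.00558), a call that DESeq2 did not make (adjusted p 0.0156). Thus 1 of these genes was higher and 2 were lower in S1S2, and 2 were higher in G9Gl. In G9Gl against S1S2 Il1a, Il1rn and Il18 were higher.

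Of 22 regulators of the NF-kB and C/EBP pathways, all were tested and 9.09% were called against WT in each mutant, beside the backgrounds of 8.996% and 10.2%. Without the fold limit 11 were higher and 3 lower in S1S2, and 8 were higher and 4 lower in G9Gl, where 37.9% and 34.99% of all tested genes passed in either direction. Tnfaip3, an NF-kB target that encodes a feedback inhibitor, had 10.6 ± 1.60 CPM in WT, 35.7 ± 3.08 CPM in S1S2 and 25.5 ± 1.63 CPM in G9Gl. By edgeR it rose by 1.76 on the log2 scale in S1S2 (SE 0.14, adjusted p 8.73e-11) and by 1.27 in G9Gl (SE 0.13, adjusted p 5.7e-09). Cebpa, a C/EBP factor, fell in both on few counts, from 15 to 26 in WT to 2 to 5 in S1S2 and 0 to 5 in G9Gl. DESeq2 did not call Cebpa in S1S2 (adjusted p 0.0106). Nfkbiz was called between the mutants alone, higher in G9Gl (log2 fold change 1.07, SE 0.11, adjusted p 7.02e-08). None of 11 factors of transcript decay and none of 11 genes of Il6 signalling was called by edgeR or DESeq2 in any of the 3 contrasts. At an unadjusted p under 0.05 edgeR counted 6 decay factors and 8 signalling genes in S1S2, 9 and 7 in G9Gl, and 8 and 9 between the mutants. Of all tested genes 54.6%, 52.4% and 57.8% passed that rule.

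Of 7 genes for proteases and proteoglycans that release or bind chemokines, 6 were tested. In S1S2 the gelatinase Mmp9 (log2 fold change 1.26, SE 0.25, adjusted p 5.31e-05 by edgeR) and the heparan sulfate proteoglycan Sdc4 (1.01, SE 0.098, adjusted p 2.17e-09) were higher. In G9Gl Mmp2 was higher (2.13, SE 0.24, adjusted p 1.5e-08) and Mmp9 lower (-2.65, SE 0.24, adjusted p 1.48e-06), and both differed in the same directions from S1S2.

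**Figure D5:**
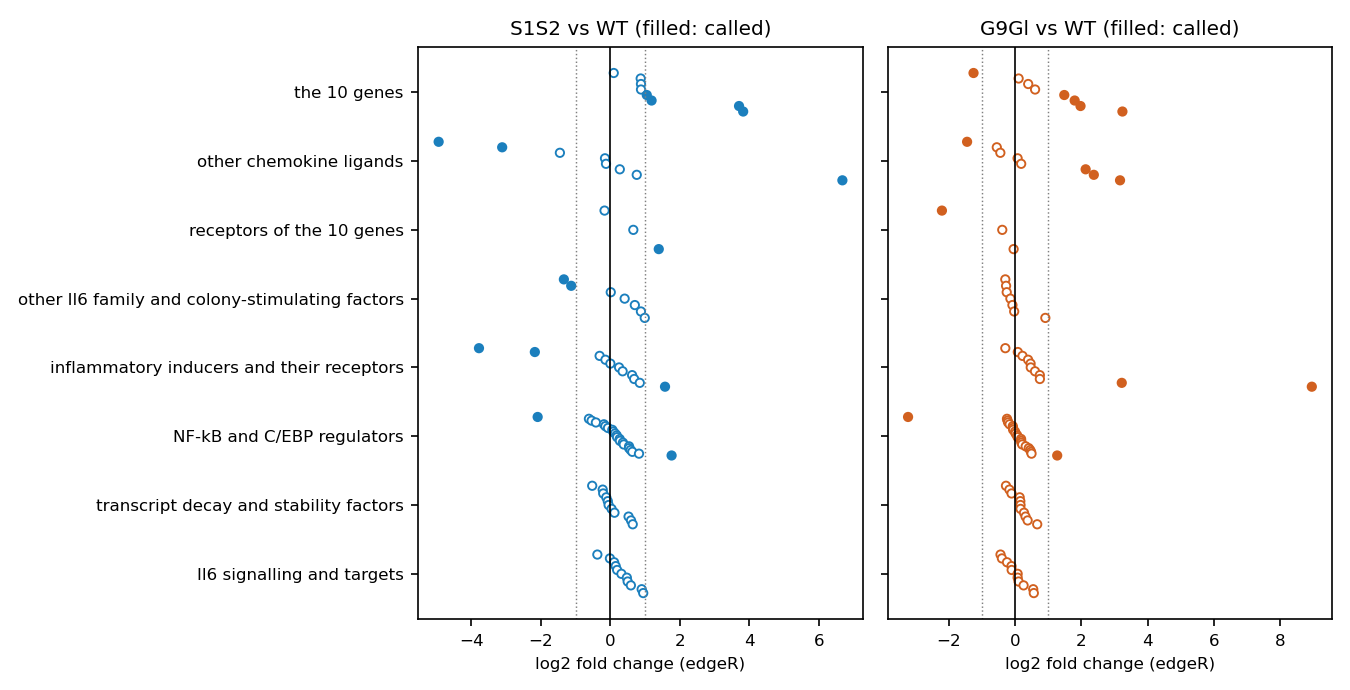
Log2 fold changes against WT (edgeR) of the tested genes of the 8 lists named on the axis, with S1S2 on the left and G9Gl on the right. The protease list and the cell type markers are not drawn. Filled points were called, open points were not, and dotted lines mark a fold change of 2. The point of Il1a at the far right in G9Gl rests on no count in WT, so its position is no measured fold. All 11 decay factors and all 11 Il6 signalling genes lie between the dotted lines.

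Markers of other cells were read because leukocytes also make these chemokines. Of 12 macrophage and leukocyte markers, Adgre1, Tyrobp and Cd3e were among those with no count in any library, and Ptprc had none in WT or S1S2 and 2 to 4 counts in G9Gl. Others were detected in every genotype. Cd68 had 139, 134 and 136 counts in WT, 88, 88 and 71 in S1S2, and 127, 118 and 138 in G9Gl. Cd14 had 42 to 77 counts and Fcer1g had 7 to 25 counts over the 9 libraries. The summed level of the 12 markers was 7.02 to 7.24 CPM in WT, 6.34 to 7.26 in S1S2 and 8.91 to 9.10 in G9Gl. Of the 4 tested 1, Ly6g, was called higher in G9Gl. The 6 endothelial markers summed to 0.165 to 0.225 CPM in WT, 1.60 to 1.93 in S1S2 and 0.790 to 2.53 in G9Gl. Kdr was called higher in S1S2 (28, 28 and 29 counts) and Cdh5 in G9Gl (43, 14 and 31 counts). The 6 epithelial markers summed to 0.297 to 0.548 CPM in WT, 4.70 to 5.59 in S1S2 and 4.21 to 5.38 in G9Gl. Different keratins made up these sums, Krt8 in S1S2 (4.67 CPM, 0.138 in WT and 0.221 in G9Gl) and Krt14 in G9Gl (4.38 CPM, no count in WT and 0.0584 CPM in S1S2). Each was called higher there than in WT, and Krt8, Krt14, Kdr and Cdh5 were all called between the mutants. These genes and Ly6g passed the filter only through the genotype in which they were high, so their calls are descriptions. The part of these cell markers in the values of the 10 genes was not tested. In bulk RNA, fewer cells that make a transcript and less transcript per cell cannot be told apart.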

How the data were processed

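The authors deposited raw counts of reads for each Ensembl gene, without normalization. The study's methods, which are taken to describe these libraries too, state that stranded total RNA was read as paired ends of 75 bp, trimmed with cutadapt, aligned to GRCm38 with STAR 2.5.2b and counted with TEtranscripts, which can share multiply aligned reads between copies. The annotation release and strand setting of the counting are not given in the sources used here. Symbols, positions and lengths came from GENCODE M21 (GRCm38), to which 47310 of 47937 identifiers matched. Repeats were not analysed here.

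All 9 libraries entered a single fit by genotype in R 4.3.3 with edgeR 4.0.16 (filterByExpr, TMM, glmQLFit, glmQLFTest). Adjusted p-values cover all 15540 tested genes. SE come from the spread of log2 CPM with a prior count of 2, and 95% intervals from the fit. The script was tested on simulated data. DESeq2 1.42.0 and other settings were alternatives. Ratios of summed counts for Il6 and Cxcl11, with exact conditional binomial intervals, were added after their counts were seen. The 10 genes and the lists were chosen with earlier results of these data known. Of each list, genes called in any contrast are named (markers by examples). Replicate pairs differed by 2.68 to 25.6 chi-square per degree of freedom, so none was a duplicate. Reads carry no molecular identifiers, so floors and counting intervals cover counting error only.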

Additional observations from a re-analysis of the deposited data

Results flagged for a closer look

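Ccl7, Cxcl10 and Cxcl12 differed between the effects of the mutants by the test of the difference itself, edgeR on G9Gl against S1S2. Ccl7 was higher in G9Gl (log2 fold change 1.39), and Cxcl10 (-1.85) and Cxcl12 (-2.13) were lower. In each of these genes the libraries of the mutants did not overlap, which was also the case for 60.8% of the tested genes. Groups of 3 libraries were not tested for single outlying values.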

How the results depend on the processing

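The number of genes called was 1398 in S1S2, 1580 in G9Gl and 2028 between the mutants. With at least 10 counts in every library it was 728, 682 and 962, where fewer genes were tested. With an adjusted p of 0.05 and no fold limit it was 7599, 7138 and 8288. Of the 10 genes, 7 were then called in S1S2 against WT, 7 in G9Gl against WT and 8 in G9Gl against S1S2. With the test against a fold change of 2, counted at an adjusted p of at most 0.05, it was 868 in S1S2 against WT. Leaving out each library in turn gave 1296 to 1426, 1515 to 1599 and 1981 to 2076 genes, and 3 to 6, 5 to 5 and 3 to 3 of the 10 genes. The log2 fold change of Ccl7 in S1S2 against WT, not called, was -0.044 without WT replicate 1, -0.0077 without S1S2 replicate 2 and -0.029 without S1S2 replicate 3, and at most 0.30. Without a single library Ccl2 lost its call in S1S2 and Cxcl1, Cxcl12 and Cx3cl1 gained theirs, as given with their values. DESeq2, DESeq2 size factors, no composition factor, no filter, a fit of the 6 libraries compared, thinning to the smallest library and removal of chromosome medians changed no call of the 8 tested genes. Without the filter Il6 was called as well in S1S2 against WT, which made 5 of the 10 genes. The labels number replicates 1 to 3, and the correlation of same-numbered libraries ranged from -0.069 to 0.12, over 0.1 in 2 of 9 pairs, so the numbers were not taken as a pairing. With replicate numbers fitted as a block, 1383, 1568 and 2022 genes were called, of which 1368, 1559 and 2005 were shared with the fit without it, and the calls of the 10 genes did not change. Depth limits what can be said of Cxcl5 and Il6, which held at most 4 and 10 counts in a library.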

Other observations

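For each tested gene of the 10, the genes whose log2 CPM followed it most closely over the 9 libraries were read among 10847 or 10848 tested genes with a mean normalized count over 100. The 9 libraries are 3 genotypes of 3, so genotype differences set most of each Pearson r, and the values are descriptions. Csf1 was closest to Irf1 (r = 0.998), an interferon-induced transcription factor, and to Cxcl10 (0.997). Cxcl10 was closest to Slc9a3r1 (0.997) and then to Csf1. Ccl5 was closest to Itgav (0.997) and Cttnbp2nl (0.994), and Ccl2 to Blnk (0.996) and Apol9a (0.995). For Cxcl12 the closest were Gspt1 and Cdca5 (0.994 each), and for Cx3cl1 Aagab (0.985) and Ciapin1 (0.978). Ccl7 was closest to Plod1 and Thoc5 (0.974 each), and Cxcl1 to C2cd2 (0.969) and Chfr (0.963).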
